A study of Mus musculus with 22 samples.

Results

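Immediate early response genes are the genes that a cell transcribes within minutes of a growth factor, cytokine or stress signal, before any new protein is made. The 10 genes described here, Fos, Fosb, Jun, Junb, Atf3, Egr1, Egr2, Ier2, Dusp1 and Zfp36, were chosen by name, and all 10 were found among the 46882 genes of the deposited table. Their levels were followed in MC38 cells, in normal mouse skin and in each of 12 MC38 tumors.

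MC38 is a transplantable mouse cell line from a chemically induced colon adenocarcinoma of a female C57BL/6 mouse. The study injected it under the skin of female mice that were 8 to 12 weeks old. The 16 libraries were 2 of MC38 cells before injection (day 0, strain background C57BL/6N), 2 of skin from wild-type C57BL/6N mice (day 23), 3 each of tumors grown in wild-type C57BL/6N mice and taken on day 23 or day 46, and 3 each of tumors grown in mice labelled RAG1-/- (strain B6.129S7-Rag1tm1Mom/J) and taken on day 13 or day 23. Mice without Rag1 form no mature T or B cells but keep macrophages, NK cells and other innate cells. None of these groups received a drug, all tumors carried the same injected cell line, and RNA came from 1 of the pieces into which each whole tumor was divided, so tumor cells and host cells were measured together. The labels do not say whether the 2 MC38 libraries were separate cultures or whether the skin libraries came from separate mice, so the p-values for these groups measure the spread between libraries, which may be technical.

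In resting cells these genes are kept at low levels. A signal that passes through the MAP kinase ERK activates the serum response factor SRF with its ETS partners, and signals through cyclic AMP or calcium activate CREB; both sets of factors sit on the promoters of immediate early genes at rest. The proteins made differ by role: transcription factors that start the next wave of transcription, and feedback proteins that end the signal. Fos and Fosb pair with Jun and Junb to form the factor AP-1. Atf3 is induced by stress and pairs with Jun proteins or with itself. Egr1 and Egr2 are zinc-finger factors, and Ier2 encodes a small nuclear protein. Dusp1 encodes a phosphatase that switches off MAP kinases, and Zfp36 encodes tristetraprolin (TTP), which binds AU-rich elements in the 3′ untranslated ends of short-lived mRNAs and brings about their decay. The same class of genes is also known to rise when tissue is cut, chilled, warmed or digested.

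Stretches of the promoters are shown first, where the letters of elements that CREB or SRF is known to bind were found in them. RefSeq start sites (GRCm38.p6) gave promoter windows for 8 of the 10 genes. Egr1 and Ier2 had no window and were not searched. The letters TGACG, the core of the CREB and ATF element, were searched on both strands of the 250 bases before the start. They were found in 6 of these 8 genes, Fos, Fosb, Junb, Egr2, Atf3 and Dusp1, and in 19.8% of the 27025 genes with such windows (17.8% of 32851 windows, since a gene can have several starts). Windows of 30 bases around the match are printed 5′ to 3′ on the strand of the gene, with the match in capitals, CGTCA being the same letters on the other strand. The 5 matches in Fos, Fosb, Junb, Egr2 and Dusp1 lie at about 53 to 138 bases before the start, and that in Atf3 lies within 7 bases of it.
Fos (chr12:85473811-85473840, plus strand): cagttccgcccagTGACGtaggaagtccat
Fosb (chr7:19310089-19310118, minus strand): atggagttgcgggTGACGcaagcgcggggg
Junb (chr8:84978838-84978867, minus strand): cgcttcctgacagTGACGcgagccgcctcc
Egr2 (chr10:67537801-67537830, plus strand): atatgggcagcgaCGTCAcgggtattgaag
Atf3 (chr1:191183334-191183363, minus strand): cctggaagctattaatagcattaCGTCAgc
Dusp1 (chr17:26508596-26508625, minus strand): gtagggcgggtgaCGTCAccgcccggtcac

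The full palindrome TGACGTCA, of which TGACG is a part, was found only in Dusp1 among the 8 and in 1.77% of all genes. The CArG box, the element that SRF binds, was found in Egr2 and Zfp36 and in 1.62% of all genes. Its letters are in capitals in the next 2 lines, and the Egr2 box lies before another annotated start of the gene than the match above.
Egr2 (chr10:67537484-67537513, plus strand): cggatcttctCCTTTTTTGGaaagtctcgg
Zfp36 (chr7:28379267-28379296, minus strand): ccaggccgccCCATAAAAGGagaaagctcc

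The EGR element GCGGGGGCG was found in Fosb and Zfp36 and in 2.93% of genes, and the AP-1 element TGACTCA in none of the 8 and in 5.16% of genes. These matches describe letters in a window and are not evidence that a factor was bound. An element farther than 250 bases before the start would not be found.

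At the other end of the transcripts, the letters TATTTAT, the core of the AU-rich element that TTP binds, were found on the sense strand in the last 300 bases of the longest annotated 3′ untranslated region in 5 of the 10 genes, against 10.2% of 16609 genes (GENCODE, GRCm38). The 5 were Fos and Dusp1 with 2 copies each, Jun and Atf3 with 1 and Zfp36, the gene of TTP itself, with 3. The first copy in each is in capitals.
Fos: ttcaattTATTTATtaagatg
Jun: ttgtgcaTATTTATaatagcg
Atf3: tattactTATTTATcccagta
Dusp1: ttTATTTATttttgtg
Zfp36: ggcccttTATTTATgacgact

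Levels are given as normalized counts, which are reads per gene divided by a size factor for the library. Libraries held 5589151 to 26134241 reads on genes, and 3 reads, taken as the smallest level a library can show, stood at 1.33 to 6.38 normalized counts. This floor covers counting error only. Both skin libraries held reads of the Y-linked gene Ddx3y, at 1803 and 1919 normalized counts against 0 to 1.07 in the tumors and 0 in MC38. Such reads mark male tissue, whereas the paper gives the injected mice and the source of MC38 as female. In every comparison with skin, this difference of sex cannot be told apart from that of tissue. Rag1 itself had 1 to 12 reads in each of the 6 tumor libraries labelled RAG1-/- and 0 to 1 read in the 6 wild-type ones. At face value this is opposite to the labels, but some of the former held only 1 read, which is under the floor. Counts per gene also do not show whether the reads fall in the deleted part of Rag1. The summed level of 6 T cell markers went with the labels, at 1.11 to 20.01 in the libraries labelled RAG1-/- and 18.6 to 182 in the wild-type ones, as did that of 5 B cell markers, at 5.56 to 30.5 and 82.4 to 292. In MC38 cells the 6 markers of epithelium summed to 4.28 and 7.82 only, so epithelial identity was not visible in this line of colon origin, while skin held 332108 and 335920 normalized counts of 6 keratinocyte markers and 91757 and 132965 of 6 skeletal muscle markers.

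Fos, an inducible partner in AP-1, lies on chromosome 12 (85473890 to 85477273, GRCm38). It was at 12.0 and 3.91 normalized counts in MC38 cells, which were 14 and 4 reads, and at 115 and 252 in skin. The day 13 tumors labelled RAG1-/- held 105, 45.6 and 38.1, and those of day 23 held 93.0, 145 and 61.4. Wild-type tumors held 37.6, 137 and 318 on day 23 and 22.5, 148 and 70.3 on day 46. Both MC38 libraries were below every tumor and both skin libraries, whereas the tumor groups overlapped with each other and with skin. From the lowest to the highest tumor Fos spanned 14.2-fold, and most of this span was found within the wild-type groups.

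Fosb, the close relative of Fos on chromosome 7 (19302696 to 19310051), was the least counted of the 10 genes in the tumors, with 3 to 35 reads per tumor library. It was at 7.70 and 1.96 in MC38, at 117 and 24.2 in skin, and between 2.86 and 30.1 in the 12 tumors with a median of 16.2. The value of 1.96 was 2 reads, under the floor of 3. The skin libraries differed 4.81-fold from each other. The lowest tumor was replicate 3 of the day 13 tumors labelled RAG1-/-, which was below 1 of the MC38 libraries.

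Jun, a partner of Fos in AP-1, lies on chromosome 4 (95049034 to 95052222). It was at 2000.4 and 2078 in MC38 and at 1952 and 2087 in skin. The tumors labelled RAG1-/- held 2275, 2453 and 1599.5 on day 13 and 2457, 2481 and 2606 on day 23. Wild-type tumors held 2559, 2543 and 3098 on day 23 and 2150.2, 2177 and 2460.5 on day 46. Jun stood at nearly one level in cells, skin and tumors, and every neighbour in the order of the 6 group means overlapped. Of its exonic bases, 7.28% are shared with the opposite-strand gene Junos, and the strand setting of the counting is not given in the sources used here.

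Junb, the Jun relative that often limits Jun activity, lies on chromosome 8 (84974484 to 84978718). It was at 353 and 420.4 in MC38, at 1242 and 993 in skin, and between 648 and 1117 in the tumors with a median of 905. All 12 tumors and both skin libraries were above both MC38 libraries, and the tumors overlapped with skin. The antisense neighbour Prdx2 shares 7.52% of its exonic bases.

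Atf3, the stress-induced AP-1 relative on chromosome 1 (191170296 to 191218039), had 0 reads in both MC38 libraries. Skin held 155 and 142, and the tumors labelled RAG1-/- held 97.3, 68.9 and 111 on day 13 and 85.1, 85.1 and 111 on day 23. Wild-type tumors held 114, 162 and 166 on day 23 and 70.4, 288 and 74.7 on day 46. With the floor of 3 reads per library, which averaged 2.75 normalized counts in MC38, skin was at least 54.0-fold higher and the mean of the tumors at least 43.4-fold higher than MC38. The highest tumor, replicate 2 of day 46, was above both skin libraries.

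Egr1, the zinc-finger factor that is often used as a readout of ERK activity, lies on chromosome 18 (34859823 to 34864984). It was at 160.0 and 130.0 in MC38 and at 2347 and 1935 in skin. The tumors labelled RAG1-/- held 348, 267 and 275 on day 13 and 347, 459.6 and 547 on day 23. Wild-type tumors held 306, 215 and 505 on day 23 and 259, 346 and 296 on day 46. The 12 tumors lay between MC38 and skin without overlapping either.

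Egr2, known from Schwann cells, hair follicles and tolerant lymphocytes, lies on chromosome 10 (67535475 to 67542188). It was at 18.8 and 14.7 in MC38 and at 1820.5 and 1353 in skin. The tumors held between 8.16 and 49.9 with a median of 27.0. Its tumor levels surrounded those of MC38 and were far below skin, and the means of the 4 tumor groups, from 26.8 to 27.9, were close to one another although single tumors differed 6.12-fold.

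Ier2, on chromosome 8 (84661331 to 84662852), was at 228 and 328 in MC38, at 675 and 516 in skin and between 233 and 525.6 in the tumors with a median of 394. The highest tumor was just above the lower skin library and the lowest was just above the lower MC38 library.

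Dusp1, the MAP kinase phosphatase on chromosome 17 (26505590 to 26562128), was at 430.4 and 327 in MC38 and at 892 and 1228 in skin. The tumors labelled RAG1-/- held 432, 244 and 251 on day 13 and 312, 368 and 333 on day 23. Wild-type tumors held 341, 673 and 1423 on day 23 and 579.6, 628 and 706 on day 46. In this gene 5 of the 6 wild-type tumors were above every tumor labelled RAG1-/-, the exception being replicate 1 of day 23.

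Zfp36, the gene of TTP on chromosome 7 (28376784 to 28380253), was at 59.0 and 27.4 in MC38 and at 303 and 289 in skin. The tumors labelled RAG1-/- held 72.7, 37.8 and 59.1 on day 13 and 99.5, 194 and 76.4 on day 23. Wild-type tumors held 95.1, 78.4 and 79.2 on day 23 and 64.5, 97.4 and 92.9 on day 46. Every tumor was below both skin libraries, and 1 tumor, replicate 2 of day 13, was below the higher MC38 library.

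**Figure D1:**
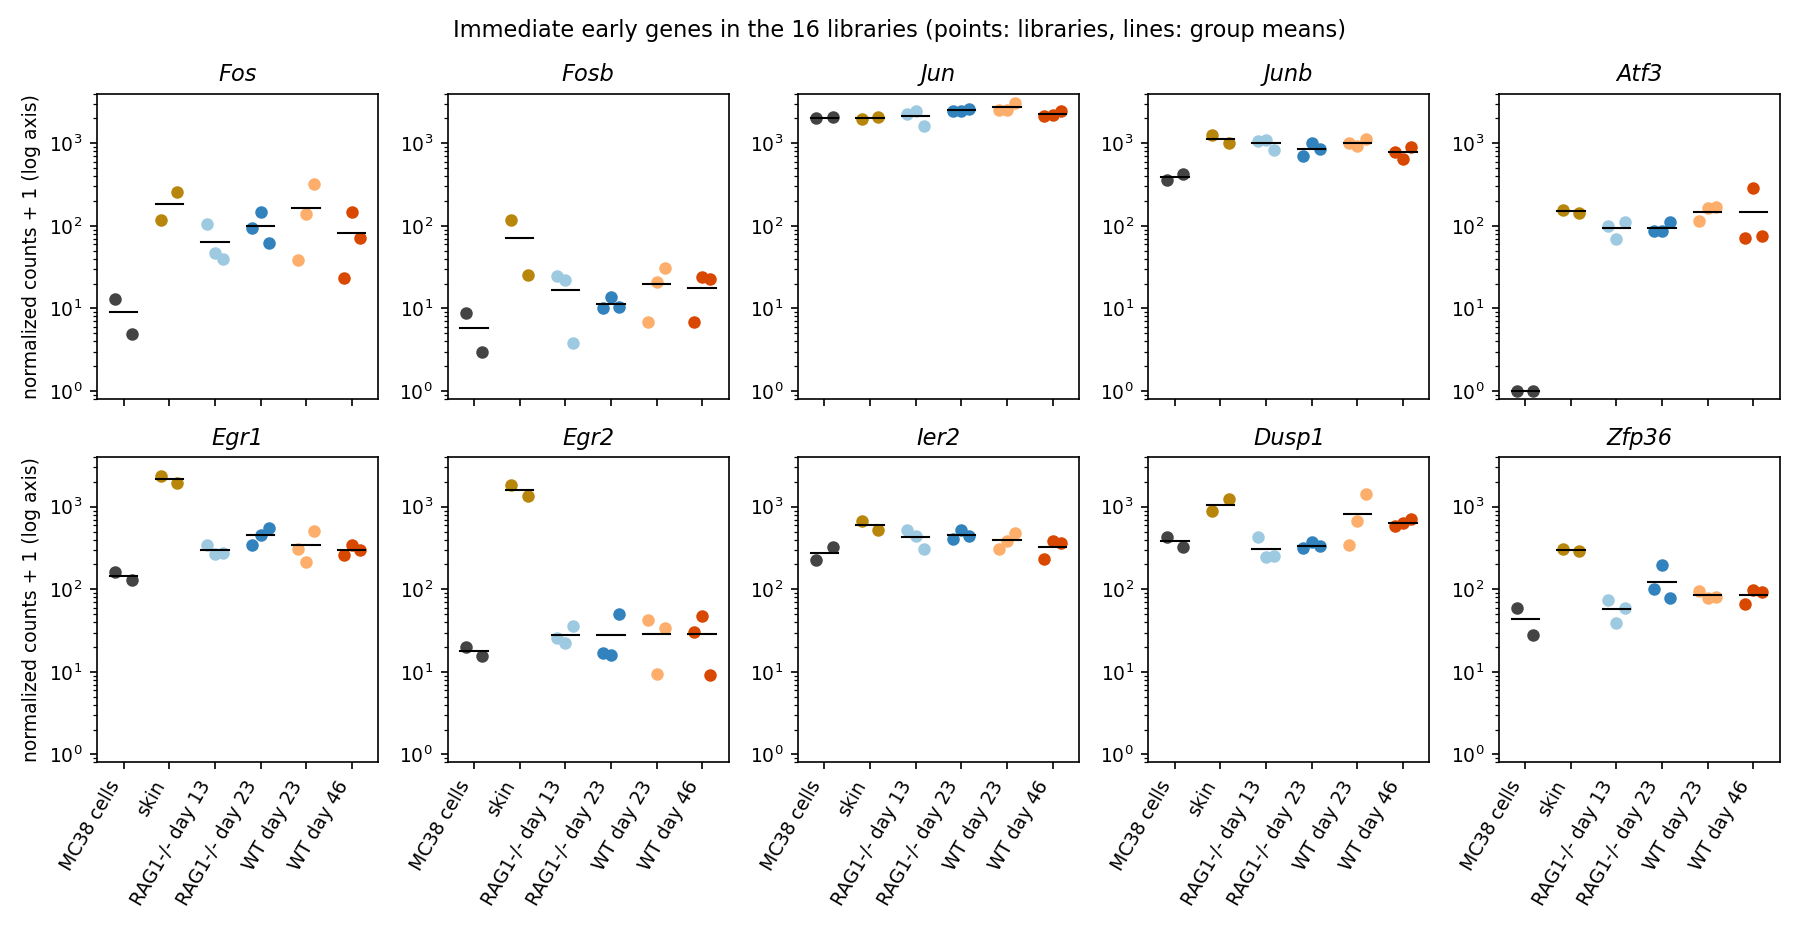
Each point is 1 library and each line a group mean, for the 10 genes in MC38 cells, skin and the 4 tumor groups, as normalized counts + 1 on a log axis. Atf3 sits at 0 counts in both MC38 libraries, Egr1 and Egr2 stand highest in skin, and Jun stays between 1599.5 and 3098 in all 16 libraries.

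The first comparison asked how the injected cells differ from normal skin. Of the 10 genes, 9 were lower in MC38 cells than in skin and the remaining one, Jun, did not differ (log2 fold change 0.01 ± 0.12 SE, adjusted p = 0.923 by limma over all 16780 genes tested). Of all genes tested, 41.2% were called lower and 20.8% higher, so the count of 9 stands against a background in which being lower was common. The median log2 fold change of the 10 genes was -3.14, against -0.40 for all genes tested. Both MC38 libraries were below both skin libraries in these 9 genes, as was the case for 51.4% of all genes.

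Egr2 had a log2 fold change of -6.48 ± 0.26 (SE, adjusted p = 0.000147, limma), which was a 94.8-fold ratio of the means. Atf3 was lower with an adjusted p of 0.000216 by limma, and its fold is the bound given above. Fos had a log2 fold change of -4.43 ± 0.66 and Egr1 of -3.88 ± 0.19 (limma adjusted p = 0.0037 and 0.000181). Fosb followed at -3.43 and the feedback gene Zfp36 at -2.85. Leaving out 1 library at a time moved Fos between -5.13 (without replicate 1 of MC38) and -3.72 (without replicate 2 of MC38). It moved Fosb between -4.53 (without replicate 2 of skin) and -2.31 (without replicate 1 of skin), with a limma adjusted p of up to 0.235. Junb, Dusp1 and Ier2 were lower by the smallest amounts, at -1.52, -1.48 and -1.11. With 2 libraries against 2, the exact permutation test over samples cannot go below p = 0.333, the value it gave for the 9 genes.

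The 3 genes Egr1, Egr2 and Atf3 passed in each of the 14 alternative analyses of this comparison. Without replicate 1 of skin only these 3 genes passed. Scaling to the library total moved the median of all genes from -0.40 to 0.04 and the share of calls that were higher from 33.5% to 47.2%, and Jun was then called higher (0.43, limma adjusted p = 0.0316).

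The next comparison asked what changes when the same cells have grown into a tumor with its host cells. Of the 10 genes, 5 were higher in the 12 tumors than in MC38 cells (Fos, Junb, Atf3, Egr1 and Zfp36) and 0 were lower, while 18.2% of the 14708 genes tested were called higher and 9.43% lower. The log2 fold changes of all 10 were above 0, with a median of 1.10 against 0.05 for all genes tested. In Fos, Junb, Atf3 and Egr1 all 12 tumors were above both MC38 libraries, which held for 16.1% of all genes.

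Among the AP-1 genes, Atf3 went from no reads to 40 to 429 reads per tumor library (adjusted p = 2.94e-10, limma). Fos was higher by 3.33 ± 0.66 on the log2 scale (limma adjusted p = 0.000918) and Junb by 1.21 ± 0.16 (limma adjusted p = 1.52e-05). Their exact permutation p was 0.022, the smallest that 12 against 2 libraries allow. Fosb, at 1.45 ± 0.72, and Jun, at 0.22 ± 0.14, did not pass (limma adjusted p = 0.151 and 0.274).

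Of the zinc-finger factors, Egr1 was higher by 1.21 ± 0.24 (limma adjusted p = 0.00107), and Egr2 differed by 0.48 ± 0.61 and did not pass (limma adjusted p = 0.61). Of the feedback genes, Zfp36 was higher by 1.00 ± 0.35 (limma adjusted p = 0.0422), and it lost the threshold in 10 of 24 alternative analyses. Dusp1 differed by 0.29 ± 0.33 and Ier2 by 0.51 ± 0.23, neither past the threshold (limma adjusted p = 0.569 and 0.108). Without replicate 2 of MC38, which held the lower Fos and Zfp36 levels, Junb, Atf3 and Egr1 alone passed. Fos was then at 2.63 (limma adjusted p = 0.0641) and Zfp36 at 0.45 (limma adjusted p = 0.599). Scaling to the upper quartile moved the share of calls that were higher from 65.9% to 81.2%.

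Markers of host cells moved along the same contrast. The summed level of 9 macrophage markers was 172 and 198 in MC38 and 15528 to 32403 in the tumors, that of 6 fibroblast markers 4955 and 5649 against 13559 to 48534, and that of 5 endothelial markers 9.41 and 13.7 against 421 to 1135. The 6 T cell and 4 NK cell markers were at 0 in MC38. All 9 macrophage markers were called higher in the tumors, and the part of these cells in the levels of Atf3, Fos, Junb, Egr1 and Zfp36 was not tested. In bulk RNA, fewer cells of a type and less RNA per cell cannot be told apart.

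The tumors were then set against normal skin, which by its Y-linked reads was not the skin around these tumors. Of the 10 genes, 6 were lower in the tumors (Fosb, Egr1, Egr2, Ier2, Dusp1 and Zfp36) and 0 were higher, against 36.3% of 16259 genes called lower and 24.4% called higher. The median log2 fold change of the 10 was -1.14, against -0.19 for all genes tested. In Egr1, Egr2 and Zfp36 all 12 tumors were below both skin libraries, which held for 32.6% of all genes.

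Egr2 had a log2 fold change of -5.99 ± 0.63 (limma adjusted p = 1.58e-06), a 58.0-fold ratio of the means, and Egr1 one of -2.67 ± 0.25 (limma adjusted p = 4.69e-07), a 6.16-fold ratio. Zfp36 was lower by a log2 fold change of -1.85 ± 0.32 (limma adjusted p = 0.000193). These 3 genes passed in each of the 24 alternative analyses. Fosb (-1.97 ± 0.77), Dusp1 (-1.19 ± 0.35) and Ier2 (-0.60 ± 0.23) had limma adjusted p-values of 0.0383, 0.00922 and 0.036. Of these, Fosb was at -0.86 (limma adjusted p = 0.515) without replicate 1 of skin, Dusp1 at -0.96 (limma adjusted p = 0.162) without replicate 2 of skin, and Ier2 at -0.20 (limma adjusted p = 0.482) with scaling to the library total.

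Fos at -1.10 ± 0.70, Junb at -0.31 ± 0.16, Atf3 at -0.44 ± 0.40 and Jun at 0.24 ± 0.14 did not pass against skin (limma adjusted p from 0.116 to 0.361). Under total scaling the median of all genes moved from -0.19 to 0.22 and the share of calls that were higher from 40.2% to 57.3%, Junb changed sign and Jun was called higher (0.64, limma adjusted p = 0.00229). Upper quartile scaling gave a share of 47.6%. The keratinocyte markers, at 332108 and 335920 in skin, were at 230 to 1878 in the tumors, and the fibroblast markers at 358160 and 416147 in skin. The neutrophil markers differed between the skin libraries, at 2046 and 14480.5. The part of these cells in the skin levels of Egr1, Egr2 and Zfp36 was not tested. The comparisons of tumors with MC38 and with skin share the 12 tumors.

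**Figure D2:**
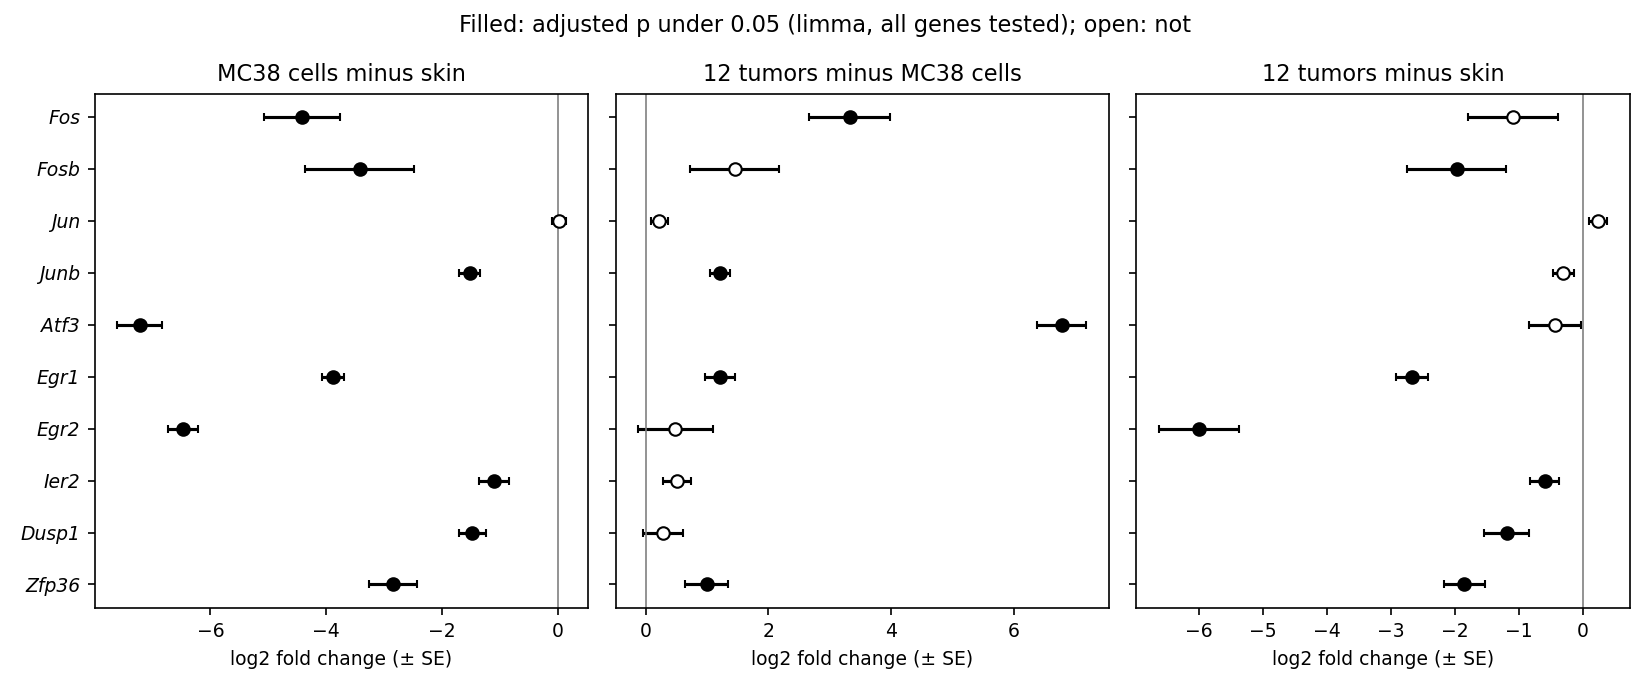
Log2 fold changes with SE from limma for the 10 genes, MC38 cells minus skin (left), 12 tumors minus MC38 cells (middle) and 12 tumors minus skin (right), each panel on its own axis, filled where the adjusted p was under 0.05. Egr2 is low in MC38 and in the tumors relative to skin, and Atf3 is far to the left for MC38 against skin (-7.22) and to the right for tumors against MC38 (6.78), where the size depends on the pseudocount because MC38 had 0 reads.

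The remaining comparisons asked whether the genes differ with the genotype of the host or with time in the tumor. At day 23, the one day on which both genotypes were taken, 0 of the 10 genes passed for wild type against RAG1-/-, where 0.278% of 14746 genes were called. By limma 1 of the 10, Dusp1, had an unadjusted p under 0.05, edgeR on the recovered reads called 0 and DESeq2 called 1. Wild-type tumors held 812 ± 554 normalized counts of Dusp1 (SD, n = 3), against 338 ± 28.5 in the tumors labelled RAG1-/- (SD, n = 3). Its log2 fold change was 1.03 ± 0.36 (SE) with a limma adjusted p of 0.292 and a DESeq2 adjusted p of 0.0385. The exact permutation test gave p = 0.2, where 0.1 is the smallest that 3 against 3 allow. Without replicate 3 of the wild-type tumors the log2 fold change of Dusp1 was 0.51. Atf3 had a log2 fold change of 0.64 ± 0.42, with all 3 wild-type tumors, at 114 to 166, above the 3 others, at 85.1 to 111. All 3 wild-type tumors were above the 3 others in 8.5% of genes. The Atf3 difference did not pass (limma adjusted p = 0.616).

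Over both days of each genotype, 0 of the 10 genes passed for wild type against RAG1-/-, with 0.712% of all genes called. The level of Dusp1 was 725 ± 366 with wild-type hosts (SD, n = 6), against 323 ± 71.6 with hosts labelled RAG1-/- (SD, n = 6). The log2 fold change was 1.06 ± 0.26 (SE), with an exact permutation p of 0.00649 for Dusp1 alone and a limma adjusted p of 0.0859 over all genes. Its alternatives ranged from an adjusted p of 0.00122 with DESeq2 to 0.265 without the mean-dependent trend, and it passed in 3 of 22 alternatives, the other two being upper quartile scaling (limma adjusted p = 0.0372) and the fit without replicate 1 of the day 23 wild-type tumors (limma adjusted p = 0.00857). The edgeR quasi-likelihood test gave an adjusted p of 0.0637 for Dusp1. Without replicate 3 of the day 23 wild-type tumors the log2 fold change was 0.80. The days differ between the genotypes in this comparison, so genotype and the day 13 and day 46 samples cannot be told apart outside day 23. Besides the T and B cell markers given above, the macrophage markers were at 22033 to 32403 in the wild-type tumors and 15528 to 27406 in the others, and their part in the Dusp1 levels was not tested. Of the 9 macrophage markers 0 were called over both days, with a median log2 fold change of 0.23. The other 9 genes had log2 fold changes between -0.31 (Ier2) and 0.49 (Atf3), none with an unadjusted p under 0.05.

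Between days, 0 of the 10 genes passed in wild-type tumors (day 46 against day 23) or in tumors labelled RAG1-/- (day 23 against day 13), with 0.0% of all genes called in either by limma. For day 46 against day 23, 1 of the 10 genes had an unadjusted p under 0.05, and neither edgeR nor DESeq2 called any of the 10. For day 23 against day 13, 2 of the 10 had one, and again neither tool called any. All 10 log2 fold changes were below 0 in the wild-type tumors at day 46 against day 23, with a median of -0.19 against 0.005 for all genes tested. The 10 values come from the same tumors, so their signs are not independent. The sign of Egr2, Fosb and Zfp36 there, at -0.02, -0.08 and -0.01, changed with the scaling. Jun (-0.27 ± 0.16) and Junb (-0.40 ± 0.18) were lower in all 3 day 46 tumors than in the 3 of day 23, which held for 5.44% of genes in this direction. Neither passed (limma adjusted p = 0.67 and 0.566).

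In the tumors labelled RAG1-/-, Zfp36 was at 123 ± 62.1 (SD, n = 3) on day 23 and 56.5 ± 17.6 (SD, n = 3) on day 13. All 3 later tumors were above the 3 earlier ones in Zfp36 and in Jun, as held for 9.48% of genes. The log2 fold change of Zfp36 was 1.05 ± 0.35 (limma adjusted p = 0.283) and that of Jun 0.28 ± 0.16 (limma adjusted p = 0.528). Egr1 differed by 0.59 ± 0.27 (limma adjusted p = 0.413). The summed skeletal muscle markers went the other way along this contrast, with 340 to 8587 on day 13 and 42.4 to 77.2 on day 23, and their part was not tested. Of these 6 markers 0 were called, and replicate 2 of day 13 held the 340. The difference between wild-type and RAG1-/- labelled tumors was also compared between the later and the earlier day of each. In this interaction test 0 of the 10 genes passed, 1 had an unadjusted p under 0.05, and the lowest limma adjusted p was 0.539, for Jun.

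**Figure D3:**
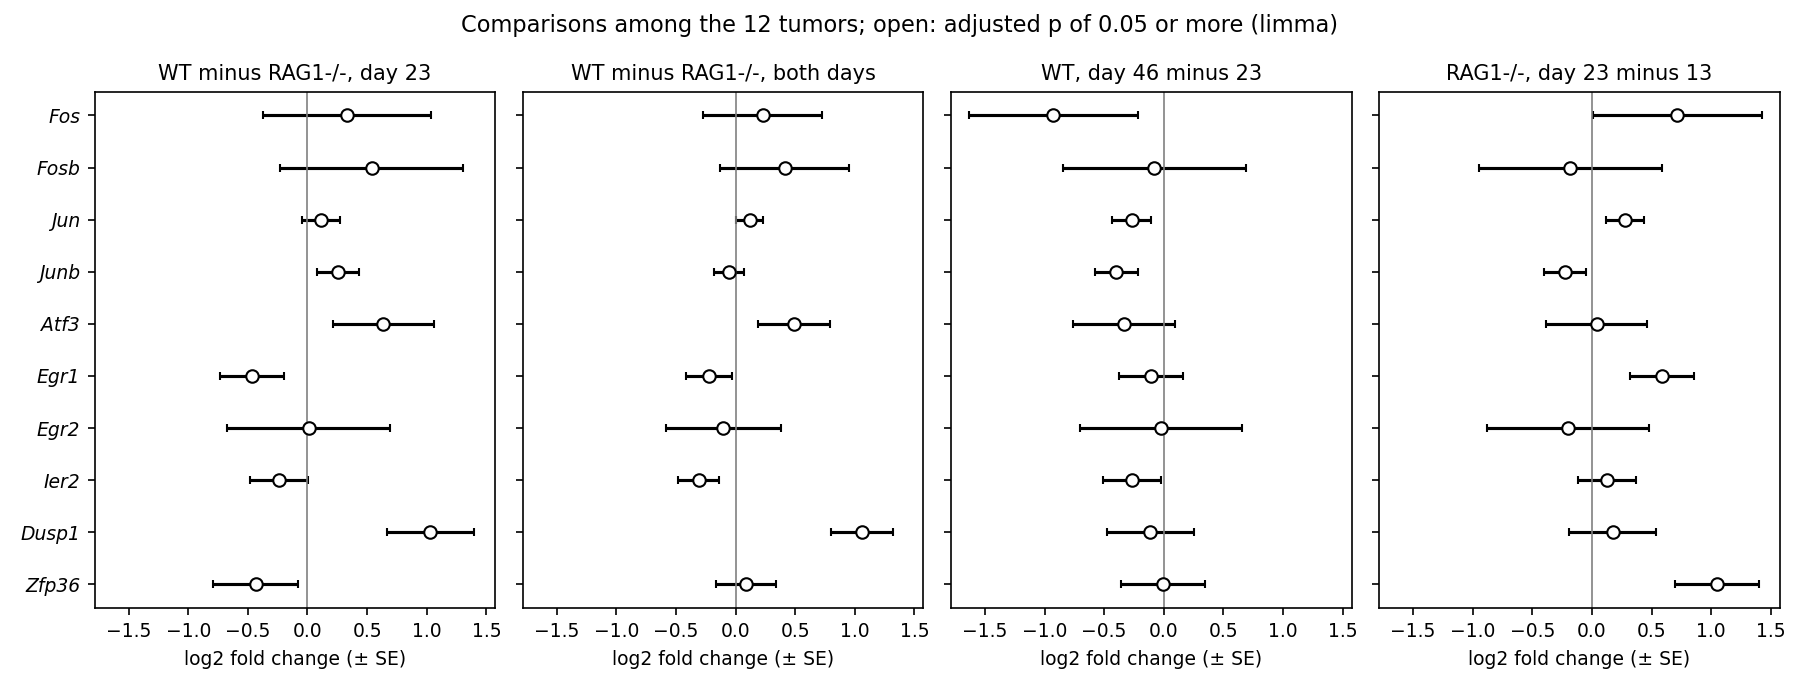
Log2 fold changes with SE from limma for the 10 genes in the 4 comparisons among the tumors, on one axis, all open because none had an adjusted p under 0.05. Dusp1 is at 1.03 and 1.06 in the wild type minus RAG1-/- panels and Zfp36 at 1.05 in the RAG1-/- day panel, while Jun and Junb have the shortest error bars.

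Single tumors also differed across many of the 10 genes at once. Replicate 3 of the day 23 wild-type tumors was above the median of the 12 tumors in 10 of the 10 genes, in Zfp36 barely, and was the highest of the 12 in 5 of them. At the other end, replicate 1 of the day 23 tumors labelled RAG1-/- was above its group mean in 0 of 10 genes, and replicate 1 of day 46 and replicate 3 of day 13 were each above the median of the 12 tumors in 2. The wild-type tumor with the high levels had 7312850 reads on genes, the second lowest depth of the 16 libraries, and its macrophage marker sum, at 22033, was the lowest of the 6 wild-type tumors.

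**Figure D4:**
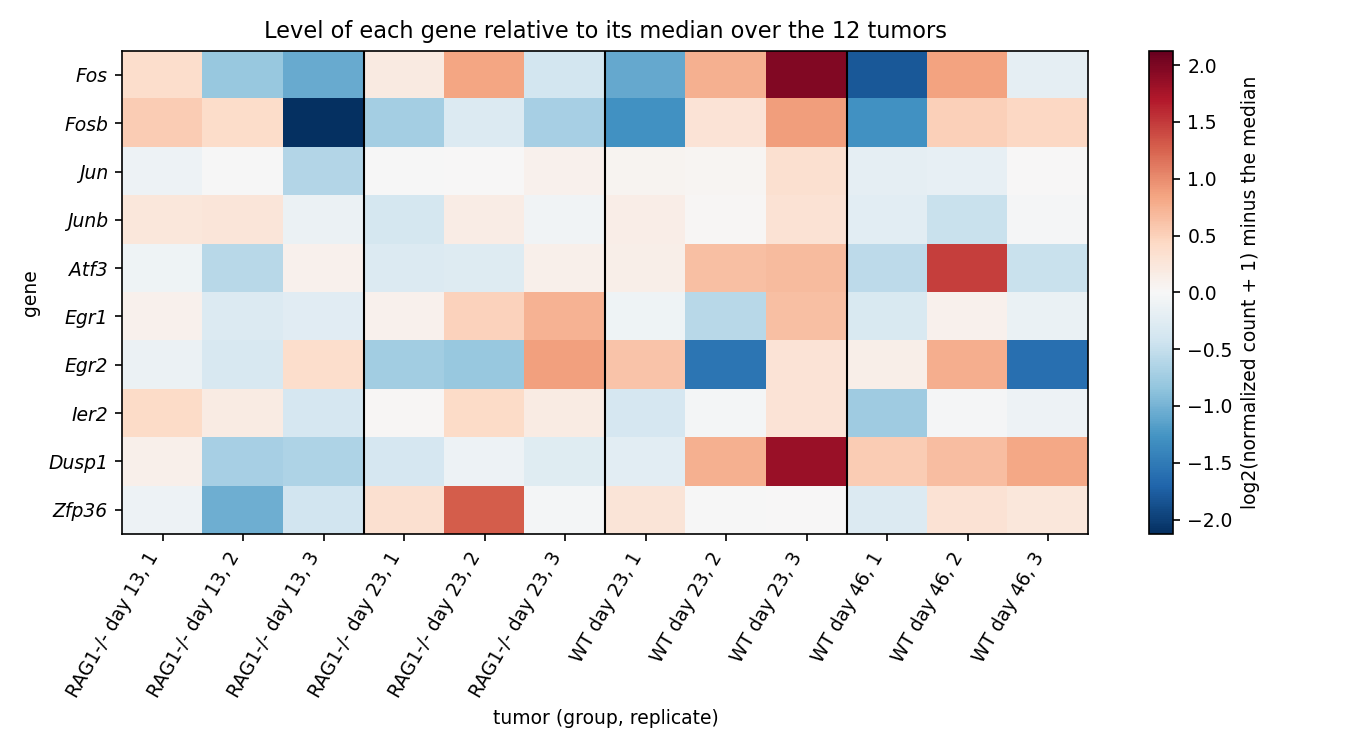
Each cell shows the log2(normalized count + 1) of a gene (rows) in a tumor (columns) minus that gene's median over the 12 tumors, red above and blue below. The column of replicate 3 of the day 23 wild-type tumors is above the median in all 10 rows, though in Zfp36, at 79.2 against a median of 78.8 normalized counts, by too little to show, and the rows of Jun and Junb are pale.

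Whether the genes moved together from tumor to tumor was examined with the 45 pairs of genes over the 12 tumors. Pearson's r had a median of 0.26 and ranged from -0.33 to 0.73, with 36 pairs above 0. Of the 45 pairs 7 had an unadjusted permutation p under 0.05 for Pearson's r and 0 passed after Benjamini-Hochberg adjustment, by Pearson's r (lowest adjusted p = 0.178) or by Spearman's rho (lowest adjusted p = 0.288). Fos and Ier2 had an r of 0.73 (permutation p = 0.00713) and a rho of 0.66 (permutation p = 0.0214). Fos and Fosb had an r of 0.72 (permutation p = 0.00792) and a rho of 0.76 (permutation p = 0.00639). Without the 2 tumors farthest from the median of Fos, r was 0.56 and 0.61. With each tumor taken relative to its group mean, the median r over the 45 pairs was 0.36, Fosb and Ier2 had an r of 0.95, Fos and Ier2 one of 0.87 and Junb and Atf3 one of -0.50.

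Relative to the group means, Ier2 (r = 0.90), Fos (r = 0.80), Fosb (r = 0.75), Egr1 (r = 0.71) and Dusp1 (r = 0.70) followed the mean of the other 9 genes most closely over the 12 tumors, and Jun (r = 0.51) came next. Junb (r = 0.34), Atf3 (r = 0.28) and Zfp36 (r = 0.20) followed it loosely, and Egr2 (r = -0.08) did not follow it. Among 14736 other genes, those whose deviations were most like the mean of the 10 were Mcl1 (r = 0.95), Stk17b (r = 0.94), Adprm (r = 0.92), Tmem43 (r = 0.91), Casc4, Pgrmc1, 1810011O10Rik, Flcn, Abt1 and Unk (r = 0.86). Mcl1 encodes a short-lived protein of the BCL2 family that protects from apoptosis, and Stk17b a serine/threonine kinase. These values describe 12 tumors that share library depth and composition, and the genes were the highest of a very large number compared, so no p is given.

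The genes differed in how much they varied. The biological coefficient of variation, the spread between tumors of a group beyond counting error as edgeR estimates it, was 0.57 for Fos, 0.59 for Fosb and 0.56 for Egr2, above that of 91.0%, 92.3% and 90.8% of the 14746 genes. It was 0.16 for Jun and 0.16 for Junb, above that of 11.5% and 17.4% of genes. Atf3 (0.38), Dusp1 (0.31) and Zfp36 (0.31) were above the median of all genes, 0.24, and Egr1 (0.24) and Ier2 (0.21) at or below it. Of the 3 genes with the widest spread, Fosb and Egr2 were at a mean of 15.4 and 27.4 over the 12 tumors and Fos at 102. Jun and Junb were at 2405 and 908, above the level of 94.6% and 82.7% of genes. The percentages for spread are over genes of all levels.

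The wider pathway was described with 78 genes in 6 lists, which were chosen with earlier results of these data known. In MC38 against skin 17 were called higher and 38 lower of 73 tested, beside 20.8% and 41.2% of all genes. In tumors against MC38 they were 25 higher and 9 lower of 75, beside 18.2% and 9.43%, and in tumors against skin 19 higher and 25 lower of 75, beside 24.4% and 36.3%. The counts of higher genes in MC38 against skin and of lower genes in tumors against MC38 are near the shares of all genes. So are both counts in tumors against skin. In each of the 4 comparisons among tumors 0 were called. The median log2 fold changes were -0.68, 0.24 and -0.30, beside -0.40, 0.05 and -0.19 for all genes tested.

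Among 10 further AP-1 genes, 3 were higher and 3 lower in MC38 against skin, beside 20.8% and 41.2% of all genes. Both counts are near those shares. Fosl1, the Fos relative that stays high where ERK is constantly active, was at a mean of 2020 normalized counts in MC38, 88.7 in skin and 1664 in the tumors, with log2 fold changes of 4.49 ± 0.20 for MC38 against skin and 4.19 ± 0.17 for tumors against skin (limma adjusted p = 0.00016 and 3.28e-10). Batf, a partner of Jun in lymphocytes and dendritic cells, was at a mean of 16.1 in tumors and 0.49 in MC38 (log2 fold change 3.48 ± 0.55, limma adjusted p = 9.05e-05). The MC38 mean of Batf was under the floor of 3 reads, so the size of this change depends on the pseudocount.

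Of 12 other early transcription factors, 6 of 10 tested were lower in MC38 than in skin and 1, Myc, was higher. The shares of all genes were 41.2% and 20.8%. Nr4a3, an orphan nuclear receptor gene, was at a mean of 3.61 in MC38, 66.9 in skin and 6.64 in tumors (tumors against skin -3.55 ± 0.77, limma adjusted p = 0.00108). Of 22 early feedback and signalling genes, 14 were lower and 4 higher in MC38 than in skin, beside 41.2% and 20.8% of all genes, so that the count of 4 is near the background. Btg2, an antiproliferative gene, had a log2 fold change of -6.27 ± 0.24 in MC38 against skin and 3.15 ± 0.31 in tumors against MC38 (limma adjusted p = 0.000141 and 3.47e-07). Ctgf, a matricellular growth factor gene, had -6.19 ± 0.34 and 4.998 ± 0.471 (limma adjusted p = 0.000224 and 1.75e-07). Tnfaip3, a brake on NF-kB signalling, had -5.13 ± 1.11 and 4.56 ± 0.53 (limma adjusted p = 0.0131 and 2.63e-06).

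Of 16 genes of the ERK and SRF pathway itself, 7 were lower and 2 higher in MC38 against skin, where 41.2% of all genes were lower and 20.8% higher, and 8 were lower and 3 higher in tumors against skin, where the shares of all genes were 36.3% and 24.4%. The count of 7 is near the share of all genes. Egfr, the receptor for epidermal growth factor, had the largest change, at a mean of 8.37 in MC38, 1472 in skin and 49.8 in the tumors (log2 fold changes -7.33 ± 0.36 and -5.11 ± 0.62 against skin, limma adjusted p = 0.000183 and 6.13e-06).

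Of 10 mRNAs known to be bound by TTP, the product of Zfp36, 8 were counted in the tumors. In tumors against MC38, 5 were higher and 2 lower, beside 18.2% and 9.43% of all genes. Il1b, at a mean of 427 in tumors and 1.28 in MC38, had a log2 fold change of 7.72 ± 0.35 (limma adjusted p = 5.75e-12). Ccl3 and Cxcl2 were at a mean of 53.4 and 44.8 in tumors and at 0 in MC38, and Tnf was at 28.0 and 0.43. The MC38 means of Il1b, Ccl3, Cxcl2 and Tnf were under the floor of 3 reads (2.57 and 2.93 normalized counts there). The size of their changes depends on the pseudocount. Ptgs2 and Cxcl1 fell, by 1.88 and 1.55 on the log2 scale (limma adjusted p = 0.00188 and 0.000637). The macrophage markers rose along the same contrast, as given above.

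Among 8 heat shock genes, which share the response to handling and temperature with the immediate early genes, Hspa1a was at a mean of 1.89 in MC38, 2660 in skin and 187 in tumors, and Hspb1 at 0, 7460 and 90.6. The MC38 means of Hspa1a and Hspb1 were under the floor of 3 reads. In tumors against MC38, 2 of the 8, Hspa1a and Hspb1, were called higher and 2 lower, beside 18.2% and 9.43% of all genes. In tumors against skin 3 were called in each direction, where 24.4% of all genes were higher and 36.3% lower. These counts over so short a list are not read as a result about it. By their means, Hspa1a, Hspb1, Hspa1b (542.9 in MC38, 1364 in tumors and 7771 in skin) and Dnajb1 (1064, 1421 and 1923) had the order of Egr1. That order is lowest in MC38 and highest in skin. In tumors against MC38, however, Hspa1b and Dnajb1 overlapped and were not called (limma adjusted p = 0.318 and 0.176). The share of all genes with this order was not determined. In MC38 against skin these 4 of the 8 were called lower. The other 4, Hspa8, Hsp90aa1, Hsph1 and Hspe1, were called higher (log2 fold changes 0.82 to 2.04). Of all genes, 41.2% were called lower and 20.8% higher. How the skin and tumor samples were handled before RNA extraction is not given in the labels, and its part in these levels was not tested.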

How the data were processed

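Per the labels and the study's methods, the authors made QuantSeq 3′ libraries from total RNA for an Ion Proton, trimmed the reads, mapped them to mm10 with STAR and the rest with Bowtie2, and ran HTSeq-count. DESeq2 size factors then scaled the counts, and the scaled values were deposited as a signal per gene. Annotation, strand setting and versions are not given in the sources used here. In all 16 libraries 100% of values, divided by the lowest one above 0, gave whole numbers (tolerance 0.001), which are the reads. Size factors can leave a shift between tissues of unlike composition, so other scalings were tried. Another deposited table, of 6 antibody-treated tumors, has column names that match no label and was not used here.

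limma 3.58.1 (R 4.3.3, with a mean-dependent trend) was run on log2(normalized count + 1) of genes averaging at least 5 normalized counts over the fitted libraries. Tests were two-sided, p-values were adjusted by Benjamini-Hochberg over every gene tested, and the threshold was 0.05. MC38 and skin were fitted with 4 libraries, tumors with 12, and tumors with MC38 or skin with 14, the 4 tumor groups weighing equally. Each member was also compared by a two-sided exact permutation test over samples, and correlations by 100000 permutations. Alternatives were edgeR 4.0.16 (quasi-likelihood) and DESeq2 1.42.0 on the recovered reads, pseudocounts of 0.1 and 5, no filter or a mean of at least 20, upper quartile or total scaling, no trend, a replicate block and each replicate left out. The scripts were first tested on simulated data. Libraries of a group were not copies of each other (chi-square per degree of freedom 8.42 to 87.2).

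All 10 members are named. Of the 78 pathway genes, up to 10 per comparison with the largest called log2 fold changes could be named. Of the rest, the 10 genes most like the members over the tumors could be named. Myc, Ptgs2, Cxcl1, Hspa8, Hsp90aa1, Hsph1 and Hspe1 were named after their values were seen, where few genes of a list were called. Hspa1b and Dnajb1 were also named after their values were seen. Members, lists and tests were chosen with earlier results of these data known.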

Additional observations from a re-analysis of the deposited data

Results flagged for a closer look

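In the 6 tumors labelled RAG1-/- of both days, Jun in replicate 3 of day 13, at 1599 normalized counts, lay apart from the other 5: its gap to the nearest of them took 0.671 of the whole range, above Dixon's critical value of 0.625 for 6 samples. In the 6 wild-type tumors, Dusp1 in replicate 3 of day 23, at 1423 normalized counts, lay apart by 0.662 of the range. These were 2 of 20 groups tested, and chance gives about 1 in 20. Without the first of these tumors the log2 fold change of Jun between day 23 and day 13 of the tumors labelled RAG1-/- was 0.09 rather than 0.28, and without the second that of Dusp1 for wild type against RAG1-/- over both days was 0.80 rather than 1.06.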

How the results depend on the processing

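Over 1495 alternative values of single genes, 1386 kept their direction and their side of the threshold, 44 lost it, 11 gained it and 54 changed sign, 0 of the latter past the threshold. The cause was not tested for any of the changes below. The fit that leaves out 1 library assumes that a lone MC38 or skin library varies like the other groups. The replicate numbers did not pair the tumors (same-numbered tumors of different groups had correlations of -0.24 to 0.25, over 0.1 in 4 of 18) or MC38 and skin (-0.01); with a replicate block, 4 rather than 5 of the 10 genes passed in tumors against MC38 and 4 rather than 6 in tumors against skin, and all other counts of the 10 genes were as without it. Depth limits Fosb and Egr2, with as few as 3 and 7 reads in a tumor.

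Leaving out 1 library at a time, MC38 against skin gave 3 to 8 of the 10 genes (lowest without replicate 1 of skin) and 6253 to 7400 genes in all (10402 with all libraries). Tumors against MC38 gave 3 to 6 of the 10 genes and 2092 to 4438 of all genes (4066 with all libraries), lowest without replicate 2 of MC38 and highest without replicate 1 of WT day 46. Tumors against skin gave 4 to 7 of the 10 genes. Wild type against RAG1-/- at day 23 gave 5 (without replicate 3 of WT day 23) to 89 genes (41 with all libraries), and over both days 0 to 1 of the 10 genes and 65 to 171 genes (105 with all libraries). Day 46 against day 23 gave 0 to 7 genes and RAG1-/- day 23 against day 13 gave 0 to 37, both 0 with all libraries.

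The log2 fold change of Jun for MC38 against skin then ranged from -0.033 to 0.063. For wild type against RAG1-/- at day 23, Fos ranged from -0.38 to 1.15 and Egr2 from -0.40 to 0.68. Over both days Fos ranged from -0.13 to 0.64, Fosb from -0.022 to 0.72, Junb from -0.13 to 0.0090, Egr2 from -0.35 to 0.24 and Zfp36 from -0.057 to 0.28. For day 46 against day 23, Fosb ranged from -0.70 to 0.51, Egr1 from -0.40 to 0.22, Egr2 from -0.69 to 0.66, Atf3 from -0.99 to 0.017, Dusp1 from -0.62 to 0.41 and Zfp36 from -0.11 to 0.18. For RAG1-/- day 23 against day 13, Fosb ranged from -1.05 to 0.29, Egr2 from -0.75 to 0.091, Atf3 from -0.15 to 0.18 and Ier2 from -0.083 to 0.29.

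With DESeq2, 1 of the 10 genes (Dusp1) passed for wild type against RAG1-/- at day 23 and 1 over both days. It called 239, 285, 43 and 206 genes in the 4 comparisons among tumors, in the order at day 23, over both days, day 46 against day 23 and RAG1-/- day 23 against day 13. edgeR called 22 at day 23. Without the filter 22 genes were called at day 23. Without the trend 15 were called there and 48 over both days. Upper quartile scaling called 1 of the 10 genes over both days and 1 gene for day 46 against day 23.

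Small fold changes changed sign. Total scaling gave Junb 0.090 for tumors against skin, Egr2 0.0045 and Zfp36 0.028 for day 46 against day 23 and Atf3 -0.075 for RAG1-/- day 23 against day 13. Upper quartile scaling gave Junb 0.0026 over both days, Fosb 0.020, Egr2 0.077 and Zfp36 0.096 for day 46 against day 23 and Atf3 -0.024 for RAG1-/- day 23 against day 13. edgeR gave Egr2 -0.040 at day 23, 0.012 for day 46 against day 23 and 0.063 for RAG1-/- day 23 against day 13, and Zfp36 0.0078 for day 46 against day 23. DESeq2 gave Egr2 -0.016, 0.010, 0.0097 and 0.042 in the 4 comparisons in the order above and Zfp36 0.0075 for day 46 against day 23.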
